A study of Paxillus involutus with 25 samples.

Results

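The comparison described here sets 5 cultures of Paxillus involutus strain ATCC 200175 grown with muscovite flakes against 5 cultures grown without any mineral, both on potassium-depleted medium. The cultures were taken by their labels and are 10 of the 25 in the series, and 12744 of 18032 gene IDs remained for testing once genes with few counts had been set aside. The muscovite cultures grew on MMN agar made without KH2PO4 (K-depleted medium) with mineral flakes on a cellophane membrane, and the K-depleted cultures grew on the same agar and membrane with no mineral. A further 3 groups of 5 cultures each are used only to place the results: phlogopite or K-vermiculite flakes on K-depleted medium, and complete MMN medium, which holds KH2PO4. All 25 cultures were kept for 21 days in the dark at 25 °C, and RNA of the mycelium lifted from the membrane was sequenced. The labels call the 5 cultures of a group biological replicates and record no separation of hyphae on the flakes from the rest of the mycelium. They name no phosphate salt in place of KH2PO4, so all 10 cultures of the comparison lacked that source of phosphate as well as of potassium.

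Paxillus involutus is a basidiomycete that forms ectomycorrhiza, a sheath of hyphae around tree roots through which the tree receives mineral nutrients and the fungus receives sugar. Ectomycorrhizal fungi grow on mineral surfaces in soil and are known to take part in weathering, for which acidification, organic acids and chelating molecules are the mechanisms usually described. Muscovite is a mica, a sheet silicate that holds potassium ions between its aluminosilicate layers. Phlogopite is a magnesium-bearing mica, and vermiculite is a related sheet silicate with a more expandable interlayer. The study asked how the fungus obtains potassium from such minerals. The gene table and the reference give no product names, so genes are called by their IDs and no role is given to them, with the exception of nps2 and pks3, symbols that stand for a nonribosomal peptide synthetase and a polyketide synthase.

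Library totals were 26.2 to 31.9 M counts in muscovite cultures and 25.8 to 33.3 M in K-depleted cultures, where 1 M is 1000000 counts. Pearson correlations of log2 CPM between replicates were 0.990 to 0.996 in muscovite cultures and 0.987 to 0.995 in K-depleted cultures. CPM gives counts per 1000000 of the library with TMM scaling and is not corrected for gene length, so it is compared between cultures and not between genes. K-depleted 4 lay farthest from its group, with an SD of 0.28 over the log2 deviations of all tested genes from the group mean, and muscovite 4 and muscovite 3 followed with 0.24 and 0.23. The other 7 cultures lay between 0.17 and 0.23.

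Muscovite was accompanied by a small change in the transcriptome. By edgeR's quasi-likelihood test, 428 genes were called at a Benjamini-Hochberg adjusted p below 0.05, which is 3.36% of those tested. Of these, 191 genes (1.50% of those tested) were higher and 237 genes (1.86%) were lower with muscovite. Most calls were narrow: the median fold change of the called genes was 1.30 (quartiles 1.22 and 1.45), and 345 of them (80.6%) changed by less than 1.5-fold. A change of at least 2-fold was found in 23 genes (0.180%), of which 19 were higher and 4 lower. The widest called changes were 3.87-fold upward and 2.65-fold downward, the second in PAXINDRAFT_13355, which averaged 0.234 CPM in muscovite cultures and 0.629 CPM in K-depleted cultures with overlap between them. Its call was lost without K-depleted 2 (edgeR adjusted p 0.0560) and without K-depleted 4 (0.0526).

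Most of the called genes had no overlap between the cultures of the groups. Among genes that averaged 5 CPM or more over the 10 cultures, 398 were called, and 268 of these (67.3%) had no overlap between the muscovite and the K-depleted values. Over all 10040 tested genes at that level, 511 (5.09%) had no overlap. The calls depended on single cultures: 165 of the 428 (38.6%) were called in each of the 10 fits that left out 1 culture of the comparison. Without K-depleted 3 the count was 224, without muscovite 4 it was 226, and in a fit of the 2 groups alone it was 193. Genes called lower numbered 139 without muscovite 1, 148 without muscovite 2, 115 without muscovite 4, 117 without K-depleted 3 and 153 without K-depleted 4. Genes called higher numbered 111 without muscovite 4 and 107 without K-depleted 3. In the class of at least 500 CPM, 20 of 262 genes were called, 6 higher and 14 lower. Of genes between 1 and 5 CPM, 26 of 1947 were called, 17 higher and 9 lower.

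**Figure D1:**
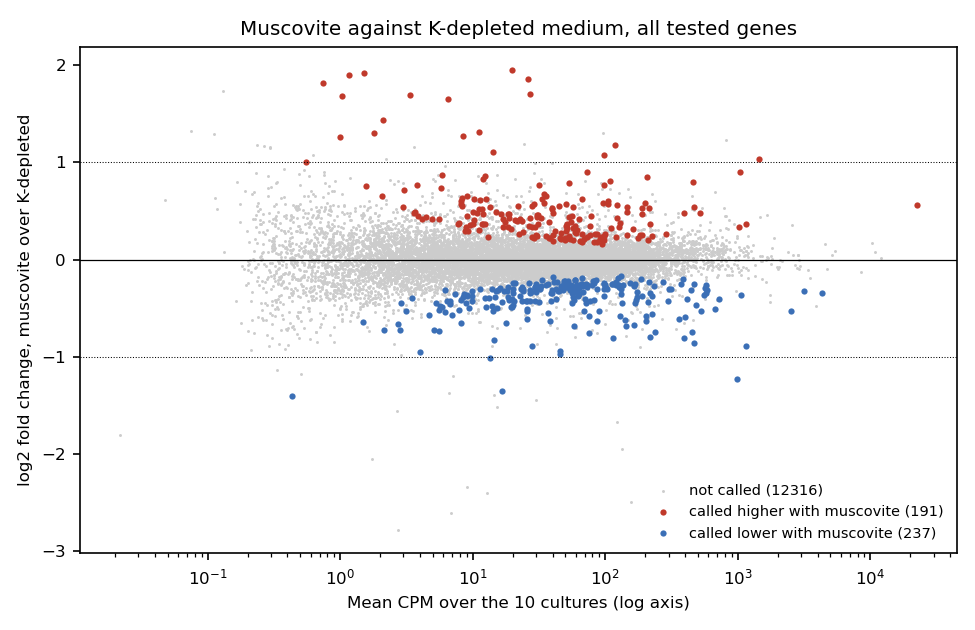
Each point is 1 of the 12744 tested genes, with its mean CPM over the 10 cultures on a log axis and its log2 fold change of muscovite over K-depleted cultures. Red and blue points are the 191 and 237 genes called higher and lower with muscovite at an edgeR adjusted p below 0.05, the dotted lines mark a 2-fold change, and 19 red and 4 blue points lie on or beyond them.

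The 14 genes that rose most, among called genes that averaged 5 CPM or more and had no overlap between the groups, were raised between 1.75-fold and 3.87-fold. The first, PAXINDRAFT_78116, is described below with its neighbours. PAXINDRAFT_102380 had 39.2, 39.5, 38.0, 46.6 and 42.1 CPM in muscovite cultures 1 to 5, against 13.8, 16.7, 12.3, 11.5 and 9.04 CPM in K-depleted cultures 1 to 5. Every muscovite culture stood at more than 2 times the highest K-depleted culture (log2 fold change 1.70, SE 0.17, edgeR adjusted p 1.40e-06). PAXINDRAFT_94322 had 9.97, 9.89, 9.61, 10.9 and 9.24 CPM in muscovite cultures and 3.31, 3.51, 2.19, 4.43 and 2.40 CPM in K-depleted cultures. Here too the muscovite values lay close together and well above the others (log2 fold change 1.65, SE 0.17, edgeR adjusted p 1.40e-06). PAXINDRAFT_103014 had 33.7, 41.7, 39.1, 31.3 and 57.9 CPM in muscovite cultures and 9.82, 5.77, 10.3, 11.6 and 18.4 CPM in K-depleted cultures (log2 fold change 1.86, SE 0.26, edgeR adjusted p 0.000153). The highest values were in muscovite 5 and K-depleted 5, and the lowest muscovite culture was above K-depleted 5.

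Further raised genes changed by smaller factors. PAXINDRAFT_102637 had 171, 190.5, 105, 166 and 192 CPM in muscovite cultures and 77.4, 70.7, 65.3, 74.3 and 76.0 CPM in K-depleted cultures. Muscovite 3 was the lowest of its group and still above all K-depleted cultures (log2 fold change 1.18, SE 0.17, edgeR adjusted p 0.000302). PAXINDRAFT_20619 had 1431, 1579, 1146, 1012 and 1555 CPM in muscovite cultures and 684, 779.8, 774, 773 and 584 CPM in K-depleted cultures. Its groups lay apart with muscovite 4 nearest to the K-depleted cultures (log2 fold change 0.90, SE 0.17, edgeR adjusted p 0.00236). PAXINDRAFT_9448 averaged 16.1 ± 5.14 CPM with muscovite and 6.41 ± 1.54 CPM without it (SD, n = 5 each), and PAXINDRAFT_15291 averaged 15.9 ± 3.01 CPM and 8.73 ± 0.933 CPM. PAXINDRAFT_170907 averaged 268 ± 43.5 CPM in muscovite cultures and 148 ± 17.4 CPM in K-depleted cultures, and PAXINDRAFT_79732 averaged 138 ± 11.7 CPM and 78.9 ± 13.5 CPM. These 4 genes had edgeR adjusted p values between 0.000539 and 0.00383.

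The calls of the remaining 4 raised genes were less stable. PAXINDRAFT_100273 had 94.3, 84.2, 158, 235 and 89.4 CPM in muscovite cultures and 55.7, 67.1, 56.2, 61.2 and 72.0 CPM in K-depleted cultures. Muscovite 3 and 4 were high, and without muscovite 4 the log2 fold change of 1.08 became 0.77 and was no longer called (edgeR adjusted p 0.104). The call was lost in 5 of the 10 fits that left out a culture. PAXINDRAFT_91826 had 8.69, 8.27, 15.6, 19.2 and 7.60 CPM in muscovite cultures and 4.41, 3.47, 4.57, 5.70 and 6.32 CPM in K-depleted cultures, with muscovite 3 and 4 high in the same way. Its log2 fold change of 1.27 became 1.15 without muscovite 3 (edgeR adjusted p 0.0453) and 1.03 without muscovite 4, where the call was lost (edgeR adjusted p 0.0746), as it was without K-depleted 1, 2 or 3 (0.0517 to 0.0579). PAXINDRAFT_158434 averaged 95.4 ± 24.8 CPM with muscovite and 51.1 ± 13.0 CPM without it. Its log2 fold change of 0.90 (edgeR adjusted p 0.0342) became 0.83 without muscovite 3 (0.0636), 0.76 without muscovite 4 (0.106) and 0.86 without K-depleted 4 (0.0825), and its call was lost in 6 of the 10 such fits. PAXINDRAFT_103212 averaged 19.6 ± 8.32 CPM and 9.07 ± 1.79 CPM, and its call was lost in the fit of the 2 groups alone (edgeR adjusted p 0.0925). Of the 14 raised genes, 10 were called in every one of the 18 alternatives that tested them.

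The 14 genes that fell most under the same rule were lowered between 1.61-fold and 2.35-fold. PAXINDRAFT_162475 had 559, 623, 550.1, 624 and 605 CPM in muscovite cultures, against 1504, 1504, 1525, 1222 and 1191 CPM in K-depleted cultures. All muscovite values lay within a narrow band, far below the lowest K-depleted value (log2 fold change -1.23, SE 0.13, edgeR adjusted p 1.40e-06). PAXINDRAFT_162512 had 842, 859.8, 683, 827 and 843 CPM in muscovite cultures and 1715, 1558, 1510, 1345 and 1382 CPM in K-depleted cultures. The groups were again far apart (log2 fold change -0.89, SE 0.11, edgeR adjusted p 1.87e-05). PAXINDRAFT_100832 had 133, 159, 183, 136 and 179 CPM in muscovite cultures and 287, 249, 278, 294 and 264 CPM in K-depleted cultures (log2 fold change -0.79, SE 0.09, edgeR adjusted p 4.36e-06). PAXINDRAFT_93209 averaged 10.5 ± 0.929 CPM with muscovite and 18.6 ± 2.63 CPM without it, and PAXINDRAFT_172428 averaged 287 ± 67.3 CPM and 502 ± 51.4 CPM. PAXINDRAFT_18660 averaged 44.6 ± 8.29 CPM with muscovite and 71.5 ± 5.30 CPM without it, and PAXINDRAFT_76742 averaged 19.5 ± 4.09 CPM and 36.2 ± 6.78 CPM.

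K-depleted 4 was the highest culture in 6 of the 14 lowered genes by a wide margin, and their sizes depended on it. PAXINDRAFT_167630 had 78.8, 80.7, 88.8, 79.1 and 90.9 CPM in muscovite cultures and 109, 108, 111, 291 and 115 CPM in K-depleted cultures. The groups did not overlap, but without K-depleted 4 the log2 fold change of -0.81 became -0.40 (edgeR adjusted p 0.000335). Its call was lost in 3 of the 10 fits that left out a culture, those without muscovite 1, 2 or 4. PAXINDRAFT_81425 had 965 CPM in K-depleted 4 against 431 to 507 in the other K-depleted cultures, and its log2 fold change of -0.74 became -0.46 without that culture (edgeR adjusted p 0.0445). PAXINDRAFT_167814 went to -0.46 in place of -0.76 and was no longer called (edgeR adjusted p 0.0987). PAXINDRAFT_99821 moved to -0.79 in place of -1.01, PAXINDRAFT_21058 to -0.75 in place of -0.97 and PAXINDRAFT_64507 to -0.80 in place of -0.94, and these 3 remained called (edgeR adjusted p 6.44e-05 to 0.000455). PAXINDRAFT_14186, at 4.12 ± 1.18 CPM with muscovite and 6.93 ± 0.683 CPM without it, was not called in 6 of the fits that left out a culture. Of the 14 lowered genes, 9 were called in every one of the 18 alternatives.

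**Figure D2:**
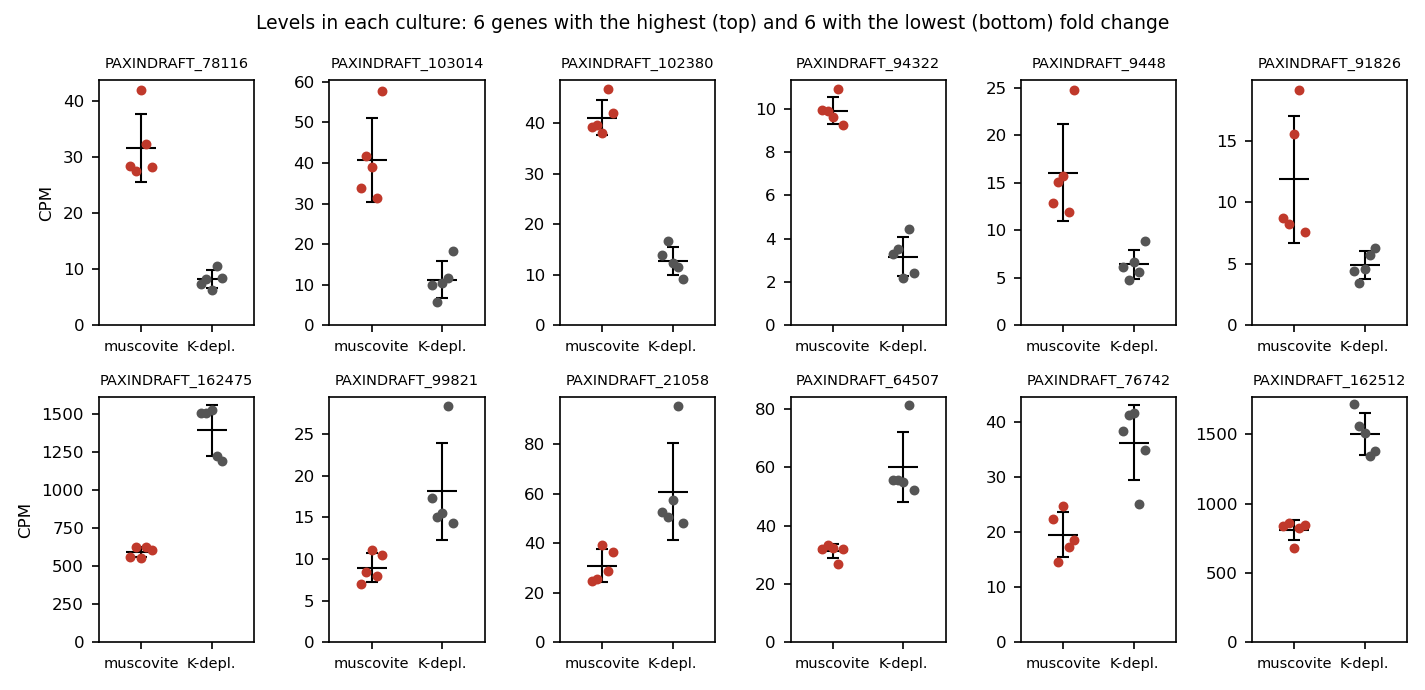
CPM of single cultures (points) with the mean and SD of each group (horizontal bar and whiskers, n = 5), muscovite cultures in red on the left and K-depleted cultures in grey on the right of each panel, for the 6 genes with the highest (top row) and the 6 with the lowest (bottom row) log2 fold change under the rule. The groups do not overlap in any panel, and 1 K-depleted culture, number 4, stands above the other 4 for PAXINDRAFT_99821, PAXINDRAFT_21058 and PAXINDRAFT_64507.

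Of the 19 genes that were at least 2-fold higher, 9 had a mean below 5 CPM and so lay outside the rule above; they were looked at after their values were seen. In gene order as inferred from the reference, 8 of the 19 formed 4 pairs of direct neighbours. Genes were taken to lie on 1 scaffold where their protein numbers were consecutive and their start positions rose. PAXINDRAFT_102218 averaged 1.86 CPM in muscovite cultures and 0.491 CPM in K-depleted cultures, and its neighbour PAXINDRAFT_102217 averaged 1.41 and 0.585 CPM. With phlogopite and K-vermiculite both genes averaged at most 0.275 CPM. PAXINDRAFT_17873 lies next to PAXINDRAFT_102380 and had 4.36, 5.12, 5.66, 5.78 and 4.58 CPM in muscovite cultures and 1.99, 2.03, 1.57, 1.12 and 1.23 CPM in K-depleted cultures. PAXINDRAFT_141730 lies next to PAXINDRAFT_94322 and had 2.66, 2.70, 1.67, 2.34 and 2.59 CPM in muscovite cultures and 0.462, 1.05, 0.439, 0.613 and 0.599 CPM in K-depleted cultures. Within each of these pairs both genes were higher in all muscovite cultures than in any K-depleted culture, with log2 fold changes of 1.70 and 1.69 for the pair of PAXINDRAFT_102380, 1.65 and 1.92 for that of PAXINDRAFT_94322, and 1.26 and 1.90 for that of PAXINDRAFT_102217. Among the others below 5 CPM, PAXINDRAFT_102916 averaged 2.55 CPM with muscovite and 1.03 CPM without it, PAXINDRAFT_17427 averaged 1.57 and 0.483 CPM, and PAXINDRAFT_22243 averaged 1.17 and 0.324 CPM, again with no overlap. PAXINDRAFT_51866, at 0.745 and 0.367 CPM, overlapped between the groups, and its call was lost in 8 of the 10 fits that left out a culture (edgeR adjusted p up to 0.103). The strand setting of the counting is not given in the sources used here, so reads shared between overlapping neighbours cannot be told apart.

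Other wide changes were less secure. PAXINDRAFT_103583 had 1743, 1993, 1539, 2050.0 and 2462 CPM in muscovite cultures and 848, 737, 858, 765 and 1565 CPM in K-depleted cultures. K-depleted 5 overlapped the muscovite values. The log2 fold change was 1.04 with that culture (SE 0.19, adjusted p 0.00206 by edgeR) and 1.29 without it. PAXINDRAFT_96982, one of the 4 genes at least 2-fold lower, had 7.95 to 11.5 CPM in muscovite cultures and 67.5 CPM in K-depleted 4, against 10.0 to 14.8 CPM in the other K-depleted cultures. Without K-depleted 4 its log2 fold change of -1.35 became -0.47, and it was no longer called (edgeR adjusted p 0.0525). Its call was lost in 7 of the 10 fits that left out a culture.

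A stretch of 32 neighbouring genes, from PAXINDRAFT_99722 to PAXINDRAFT_78116, was higher in muscovite cultures almost throughout. It was noticed after the values were seen, so its boundaries carry no test, and the calls are those of the fit over all genes. The stretch was put together from genes called higher in this same comparison with few uncalled genes between them. Its high shares of called, positive and non-overlapping genes follow in part from that choice and are descriptions. Of its 32 genes, 31 had a positive log2 fold change and 24 (75.0%) were called higher, against 1.50% of all tested genes, and 0 were called lower by edgeR, DESeq2 or limma-voom or at an unadjusted p below 0.05. These 24 genes make up 12.6% of all 191 genes called higher. The median log2 fold change was 0.48 (quartiles 0.38 and 0.58), a 1.39-fold difference, against -0.00 over all tested genes. In 22 of the genes every muscovite value was above every K-depleted value, which held for 2.31% of all tested genes. The stretch was bounded at its outermost called genes, so the absence of calls just beyond it follows in part from the choice of its ends. Among the 12 tested genes on either side 0 were called by edgeR or limma-voom and 1 of the 24 by DESeq2, with 6 at an unadjusted p below 0.05, and the median log2 fold changes were 0.00 and -0.01.

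The called genes of the stretch had log2 fold changes of 0.27 to 1.95. PAXINDRAFT_99722, the first, had 129, 114, 138, 119 and 120.1 CPM in muscovite cultures and 75.2, 79.9, 66.8, 79.0 and 62.1 CPM in K-depleted cultures (log2 fold change 0.77, SE 0.08, edgeR adjusted p 1.40e-06). PAXINDRAFT_99735, in the middle, had 80.3, 83.4, 78.1, 77.7 and 85.7 CPM in muscovite cultures and 55.8, 56.1, 48.7, 55.6 and 46.8 CPM in K-depleted cultures (log2 fold change 0.62, SE 0.07, edgeR adjusted p 1.40e-06). In both genes the groups were separated by a gap wider than the range of either group. PAXINDRAFT_169367 showed the narrowest called difference, with 65.3 ± 2.15 CPM in muscovite cultures and 54.2 ± 1.84 CPM in K-depleted cultures. The last 2 genes differed most. PAXINDRAFT_155835 had 2.57, 2.77, 3.73, 3.32 and 2.90 CPM in muscovite cultures and 1.49, 1.29, 0.914, 1.05 and 0.898 CPM in K-depleted cultures. PAXINDRAFT_78116 had 28.3, 27.5, 42.0, 32.3 and 28.2 CPM in muscovite cultures, against 7.29, 8.27, 6.29, 10.6 and 8.44 CPM in K-depleted cultures. At a log2 fold change of 1.95, with an SE of 0.26 and an edgeR adjusted p of 0.000106, it had the widest change of all genes called higher, and it borders genes with no call on its other side.

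The 8 genes of the stretch that were not called had log2 fold changes of -0.21 to 0.49. The negative one, PAXINDRAFT_12204, had 4.26, 3.43, 7.39, 5.86 and 3.60 CPM in muscovite cultures and 2.85, 2.89, 3.36, 15.3 and 4.07 CPM in K-depleted cultures, so that K-depleted 4 alone was above the muscovite cultures. PAXINDRAFT_99746 had 8.95 CPM in muscovite 4, against 19.1 to 25.7 CPM in the other muscovite cultures and 12.4 to 20.6 CPM in K-depleted cultures. The count of 24 called genes was stable, at 22 to 25 under the 18 alternatives, with 22 of the genes called in each of the 10 fits that left out a culture.

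The 5 groups took different positions over these 32 genes. Relative to the mean of the K-depleted cultures, the median log2 difference over the genes was 0.53, 0.49, 0.55, 0.42 and 0.48 in muscovite cultures 1 to 5. It was 0.05, 0.06, 0.19, 0.26 and 0.24 in phlogopite cultures, 0.28, 0.27, 0.31, 0.27 and 0.42 in K-vermiculite cultures, and -0.28, -0.34, -0.32, -0.26 and -0.44 in complete-medium cultures. The K-depleted cultures, each set against the other 4, gave -0.02, 0.03, -0.03, 0.07 and -0.05. Muscovite cultures were thus highest and complete-medium cultures lowest, with K-vermiculite 5 reaching the level of muscovite 4. The 32 genes were noticed because they were high in these same muscovite cultures, so comparisons that use those cultures again are descriptions and no further support for the stretch. In the direct comparison of muscovite with phlogopite, 20 of the 32 genes were called higher and 0 lower (0 also with DESeq2, limma-voom and at an unadjusted p below 0.05), where 2.21% of all genes were called higher, and the median log2 difference was 0.32. Against K-vermiculite, 17 were called higher and 1 lower, where 20.2% and 18.9% of all genes were called, with a median of 0.27. The other minerals were also compared with the K-depleted cultures, which the choice of the stretch had used. By edgeR, phlogopite had 7 of the 32 genes called higher and 0 lower, where 353 and 303 of all 12744 genes were called. K-vermiculite had 20 called higher and 2 lower, where 2870 and 3022 of all genes were. Complete medium against phlogopite, which shares no culture with the main comparison, had 26 of the 32 genes called lower and 1 higher, where 33.5% and 34.6% of all genes were called, with a median of -0.43. There the 12 tested genes before the stretch had 7 called lower and 2 higher, with a median of -0.38. The 12 after it had 2 lower and 4 higher, with a median of 0.07. K-vermiculite against phlogopite, also without the compared cultures, had 13 of the 32 genes called higher and 5 lower, with a median of 0.16. In it 56.25% of the 32 genes were called, against 50.43% of all genes.

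**Figure D3:**
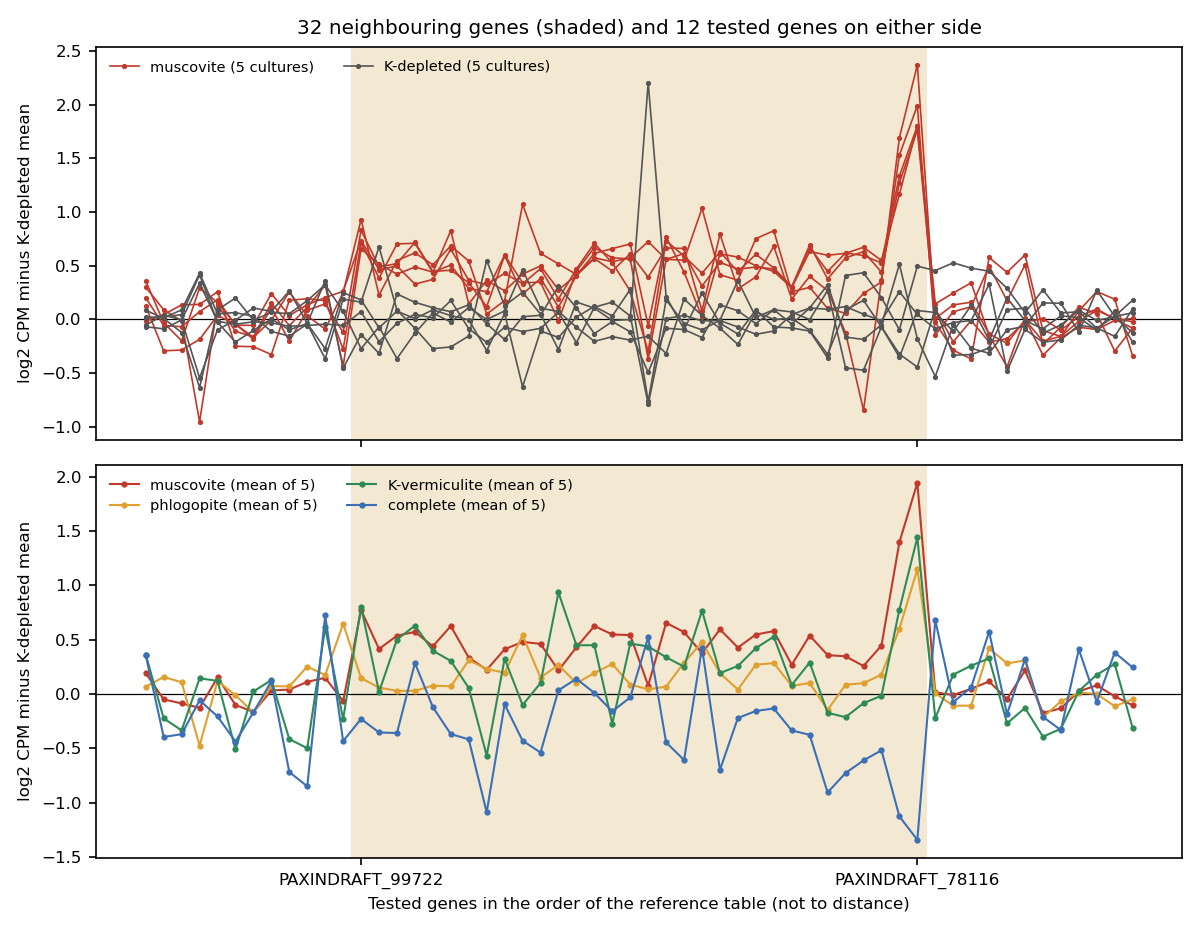
log2 CPM minus the mean of the K-depleted cultures along the gene order, for the 32 neighbouring genes (shaded) and 12 tested genes on either side; the upper panel shows each muscovite and K-depleted culture (K-depleted cultures against the other 4), the lower panel the mean of 5 cultures for muscovite, phlogopite, K-vermiculite and complete medium. The muscovite lines stand at 0.66 to 0.93 at the first shaded gene, mostly lie around the median of 0.48 along the stretch, peak at the last 2 shaded genes and scatter around 0 beyond them.

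No window outside these genes had so wide a shift in a moving median over 15 tested neighbours. The gene order gave 6931 such windows, of which 44 touched the 32 genes. The highest window, with a median log2 fold change of 0.55, lay inside the stretch. The highest outside it was 0.36, in a window that starts at PAXINDRAFT_172003, and the lowest of all was -0.21. Calls with at most 2 uncalled tested genes between them formed 1 series of 21 calls over 26 tested genes, which is the main part of the stretch, and no other series held more than 3 calls. The stretch joins it to a series of 3 calls, PAXINDRAFT_78231 to PAXINDRAFT_78116, which holds the 2 widest changes. Between them lie PAXINDRAFT_163175, PAXINDRAFT_99745 and PAXINDRAFT_99746, which were not called. A gap of this width was allowed for this join only. Called genes were otherwise neighbours somewhat more often than called genes were frequent: of 663 tested neighbours of called genes outside the stretch, 46 (6.94%) were called, against 3.36% of all genes. Of the 23 pairs of called neighbours there, 17 changed in the same direction.

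**Figure D4:**
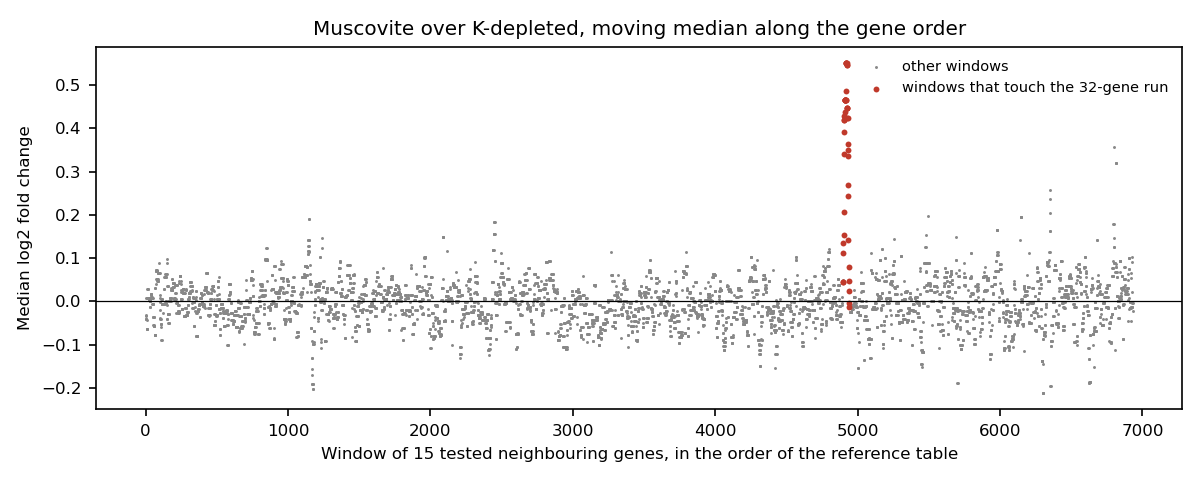
Median log2 fold change of muscovite over K-depleted cultures in each of 6931 windows of 15 tested neighbouring genes, ordered as in the reference table. Windows that touch the 32-gene stretch are red and reach 0.55, and all other windows lie between -0.21 and 0.36.

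The 4 called genes with the highest mean CPM changed by less than 1.5-fold. PAXINDRAFT_68958 had 29867, 29556, 17286, 28473 and 29276 CPM in muscovite cultures and 19300, 19863, 17791, 16738 and 17296 CPM in K-depleted cultures. Muscovite 3 lay among the K-depleted cultures and the other 4 far above them. The log2 fold change was 0.56 with all cultures (SE 0.14, edgeR adjusted p 0.0215) and 0.69 without muscovite 3. PAXINDRAFT_165289 averaged 3804 ± 471 CPM with muscovite and 4843 ± 424 CPM without it, PAXINDRAFT_13013 averaged 2822 ± 120 CPM and 3519 ± 285 CPM, and PAXINDRAFT_168342 had 1804 to 2345 CPM and 2449 to 3748 CPM. Each of these 4 calls was lost in at least 4 of the fits that left out a culture. The symbol nps2 had 117.8, 120.4, 121, 137 and 118 CPM in muscovite cultures and 109, 104, 103, 126 and 123 CPM in K-depleted cultures, which overlap, and was not called (log2 fold change 0.12, SE 0.07, edgeR adjusted p 0.395). The symbol pks3 had 12.5 to 54.5 CPM in muscovite cultures and 15.1 to 48.4 CPM in K-depleted cultures and was not called either (log2 fold change 0.25, SE 0.46, edgeR adjusted p 0.831).

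The other minerals share the K-depleted cultures as their reference, so the named genes were compared with them directly. The named genes were chosen by their values in the muscovite cultures, which these comparisons use again, so their counts and p values are descriptions. Against phlogopite, 7 of the 14 raised genes were called higher with muscovite, where 2.21% of all genes were, and 8 of the 14 lowered genes were called lower, where 1.94% were. PAXINDRAFT_20619 averaged 1345 ± 253 CPM with muscovite, 722 CPM with phlogopite, 524 CPM with K-vermiculite, 79.2 CPM on complete medium and, on K-depleted medium alone, 719 ± 85.4 CPM. PAXINDRAFT_102637 averaged 165 CPM with muscovite, 77.1 with phlogopite, 65.8 with K-vermiculite, 32.1 on complete medium and 72.7 on K-depleted medium. Both were thus highest with muscovite, and each differed from phlogopite (log2 difference 0.90, edgeR adjusted p 0.00465 for PAXINDRAFT_20619, and 1.10, 0.00137 for PAXINDRAFT_102637) and from K-vermiculite (1.36, 1.24e-06, and 1.33, 4.65e-06). PAXINDRAFT_15291, PAXINDRAFT_103014, PAXINDRAFT_102380 and PAXINDRAFT_94322 were also called higher with muscovite than with either of the other minerals, by log2 differences of 0.69 to 1.25. Not all of these rises were particular to muscovite. PAXINDRAFT_102380 averaged 20.25 CPM with phlogopite, 25.49 with K-vermiculite and 12.66 on K-depleted medium, and PAXINDRAFT_94322 averaged 4.88, 4.69 and 3.17 CPM. Both were called higher with either mineral than on K-depleted medium (edgeR adjusted p 3.14e-05 to 0.0408). PAXINDRAFT_103014 was so called with K-vermiculite (0.0406) but not phlogopite (0.153), and PAXINDRAFT_15291 with neither. PAXINDRAFT_78116 averaged 31.7 CPM with muscovite, 19.9 with phlogopite, 22.1 with K-vermiculite, 3.26 on complete medium and 8.19 on K-depleted medium, and muscovite did not pass the test against phlogopite (edgeR adjusted p 0.124) or K-vermiculite (0.100).

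Some of the other named genes lay between the K-depleted and the complete-medium cultures. PAXINDRAFT_79732 averaged 138 CPM with muscovite, 99.9 with phlogopite, 251 with K-vermiculite, 410.4 on complete medium and 78.9 on K-depleted medium. Among lowered genes, PAXINDRAFT_100832 averaged 158 CPM with muscovite, 237 with phlogopite, 68.4 with K-vermiculite, 27.5 on complete medium and 274 on K-depleted medium, and PAXINDRAFT_21058 had the same order at 31.0, 53.1, 8.99, 4.89 and 60.9 CPM. In these genes muscovite lay on the complete-medium side of the K-depleted cultures, with K-vermiculite farther over. PAXINDRAFT_162475 was different, at 592 CPM with muscovite, 809 with phlogopite, 1176 with K-vermiculite, 2389 on complete medium and 1389 on K-depleted medium, so that muscovite was the lowest of the groups. Against K-vermiculite, 7 of the 14 raised genes were called higher with muscovite and 6 lower, where 20.2% and 18.9% of all genes were. Of the 14 lowered genes, 4 were called lower with muscovite than with K-vermiculite and 7 higher. Between complete medium and phlogopite, cultures outside the main comparison, 5 of the raised genes were higher and 8 lower on complete medium, and 5 of the lowered genes were higher and 7 lower, where 34.6% and 33.5% of all genes were called.

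**Figure D5:**
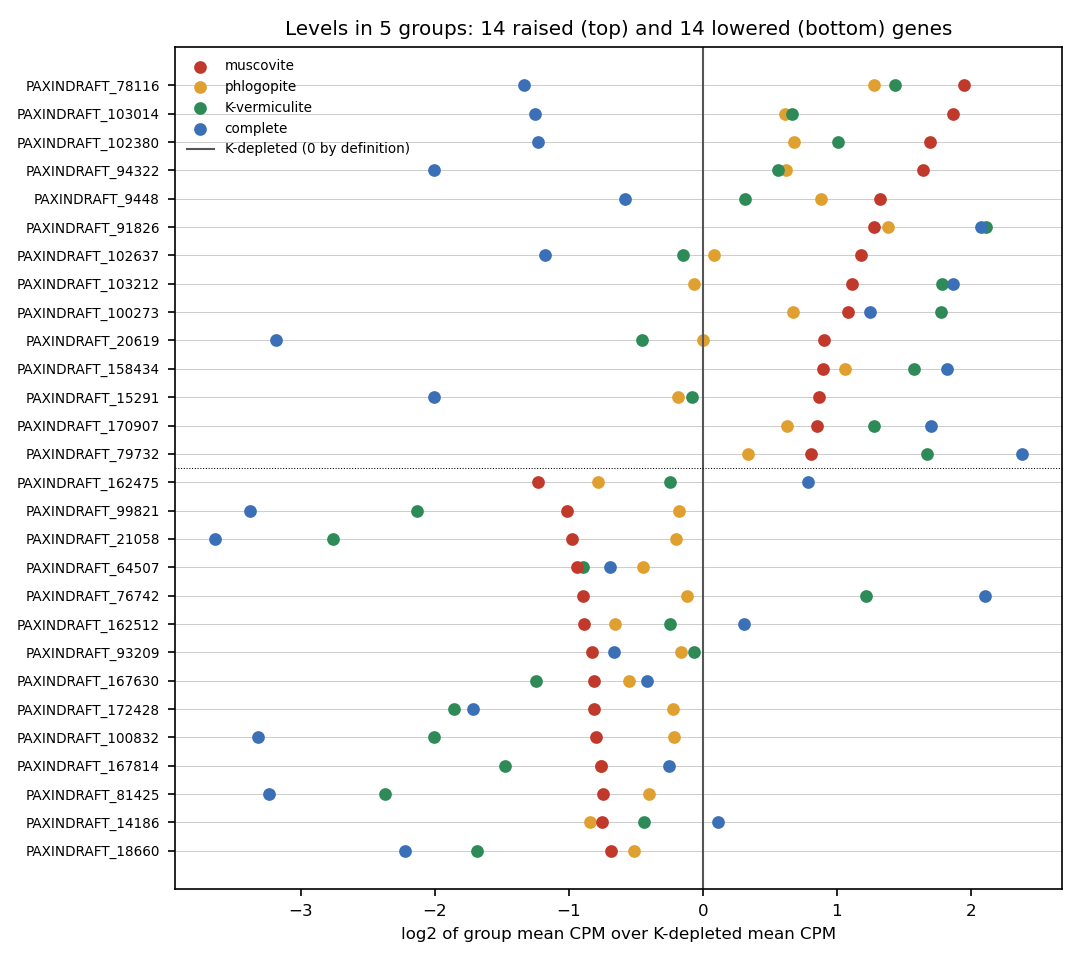
log2 ratio of the mean CPM of each group to the mean CPM of the K-depleted cultures (vertical line at 0) for the 14 raised genes above the dotted line and the 14 lowered genes below it, with muscovite in red, phlogopite in yellow, K-vermiculite in green and complete medium in blue (n = 5 each). Muscovite lies at the far right for genes such as PAXINDRAFT_20619 and PAXINDRAFT_102637, and on the same side as complete medium, but nearer to 0, for genes such as PAXINDRAFT_79732 and PAXINDRAFT_100832.

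To see whether the muscovite cultures differed from the K-depleted cultures in genes that differ between other groups, lists were taken from cultures outside the comparison. The lists hold genes called with at least a 2-fold difference between K-vermiculite and phlogopite (3.31% of all tested genes), or between complete medium and phlogopite (13.2%). Complete medium and phlogopite cultures differ both in KH2PO4 and in mineral flakes, and their lists cannot tell these apart. Of 227 genes lower with K-vermiculite than with phlogopite, 44 (19.4%) were called lower with muscovite than on K-depleted medium, where 1.86% of all tested genes were. None was called higher by edgeR, 3 were higher at an unadjusted p below 0.05, and DESeq2 and limma-voom each called 1 higher. Their median log2 fold change was -0.25, against -0.00 over all tested genes. Of 195 genes higher with K-vermiculite, 11 (5.64%) were called higher with muscovite, where 1.50% of all genes were, and 1 was called lower, with a median of 0.17. Of 753 genes lower on complete medium, 60 (7.97%) were called lower with muscovite and 20 (2.66%) higher, with a median of -0.07. Of 934 genes higher on complete medium, 24 (2.57%) were called higher and 9 (0.964%) lower, with a median of 0.05. The lists of the 2 pairs of groups share the phlogopite cultures and are not independent of each other.

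The cultures did not separate cleanly over these lists. For the 227 genes lower with K-vermiculite, the median log2 difference from the K-depleted mean was -0.47, -0.30, 0.01, -0.31 and -0.14 in muscovite cultures 1 to 5. In K-depleted cultures, each set against the other 4, it was -0.00, -0.20, 0.01, 0.21 and -0.04. Muscovite 3 lay among the K-depleted cultures, K-depleted 2 lay among the muscovite cultures, and K-depleted 4 stood on the other side. The count of 44 genes fell to 22 without muscovite 1, 23 without muscovite 2, 25 without muscovite 4 and 26 without K-depleted 4, and was 61 without muscovite 3. Without K-depleted 1 or K-depleted 3 it was 27, and in the fit of the 2 groups alone it was 21. The genes called lower over all tested genes fell in the same fits, to 139 without muscovite 1, 148 without muscovite 2, 115 without muscovite 4, 153 without K-depleted 4, 176 without K-depleted 1, 117 without K-depleted 3 and 85 in the fit of the 2 groups, in place of 237, and numbered 262 without muscovite 3. The 11 genes were 6 or 7 without muscovite 1, 2 or 4 or K-depleted 1 or 3 and in the fit of the 2 groups alone, and 20 with DESeq2. The 60 genes were 34 to 38 without muscovite 1, 2 or 4 or K-depleted 3 or 4, and 32 in the fit of the 2 groups alone. The 24 genes were 11 to 14 without muscovite 2, 4 or 5 or K-depleted 1 or 3, and 43 with DESeq2. The genes called higher over all tested genes, 191 with all cultures, were 107 to 157 in those smaller fits, 108 in the fit of the 2 groups and 292 with DESeq2.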

How the data were processed

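Per the labels' protocols, libraries were made with a TruSeq Stranded mRNA kit. The submitters' processing notes name bcl2fastq 2.19, STAR 2.5.2b and HTSeq. The genome build, the annotation, the strand setting and the treatment of reads with several matches are each not given in the sources used here. The values the authors deposited are raw counts in whole numbers, 1 column for each of the 25 cultures, all used. Of 18032 gene IDs, 3922 had 0 counts in every culture.

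The analysis used edgeR 4.0.16 in R 4.3.3. filterByExpr (minimum count 10, minimum total 15) kept 12744 genes with 99.995% of all counts. All 25 libraries entered 1 fit with a term for each group (TMM, robust quasi-likelihood), with a common biological coefficient of variation of 11.9%. Calls were made at a Benjamini-Hochberg adjusted p below 0.05 within each contrast. The steps were tested on simulated data. DESeq2 1.42.0 and limma 3.58.1 (voom) served as alternatives, beside other scalings and filters, a replicate block, a fit of 2 groups alone and fits without 1 culture. Levels are CPM with TMM scaling. log2 CPM used a prior count of 2.

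Called genes that averaged 5 CPM or more over the 10 cultures and had no overlap were ranked by log2 fold change, and the text names the first 14 and the last 14, the 4 called genes with the highest mean CPM, and nps2 and pks3. The members, lists and tests were chosen with earlier results of these data known. Lists by product name or protein feature were not run, because the reference table used here (assembly GCA_000827475.1) holds neither. It was used for gene order and biotypes only. Scaffolds, and so all neighbours, flanks and windows, were inferred from consecutive protein numbers and rising start positions in it. No 2 replicates of the compared groups agreed within counting noise (lowest chi-square per degree of freedom 10.7), and all were kept.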

Additional observations from a re-analysis of the deposited data

Results flagged for a closer look

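Single cultures that lay far from the rest of their group were looked for in 68 groups of 5 values. Chance flags about 1 in 20 such groups of unselected values. Most of the genes were chosen by their values in these same cultures, so that rate is no measure here. Single cultures of this kind were found in 11 groups. K-depleted 4 accounted for 6 of them, each a high value in a gene lower with muscovite: 167 CPM for PAXINDRAFT_167814, 291 for PAXINDRAFT_167630, 81.4 for PAXINDRAFT_64507, 28.4 for PAXINDRAFT_99821, 965 for PAXINDRAFT_81425 and 95.3 for PAXINDRAFT_21058. K-depleted 5 was high for PAXINDRAFT_79732 at 102 CPM. Muscovite 3 was low for PAXINDRAFT_68958 at 17286 CPM and for PAXINDRAFT_162512 at 683 CPM. Muscovite 4 was low for PAXINDRAFT_64507 at 26.9 CPM and high for nps2 at 137 CPM.

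The effect of muscovite differed from that of another mineral, by edgeR's test of the 2 minerals against each other at an adjusted p below 0.05, in 19 of the named genes for phlogopite and 25 for K-vermiculite. Both effects are measured against the same K-depleted cultures, so the direct difference is given. The genes were chosen by their values in the same muscovite cultures, so these differences are descriptions. The log2 difference of muscovite over phlogopite was positive for PAXINDRAFT_102380 (1.02), PAXINDRAFT_102637 (1.10), PAXINDRAFT_103014 (1.25), PAXINDRAFT_103212 (1.17), PAXINDRAFT_15291 (1.05), PAXINDRAFT_20619 (0.90), PAXINDRAFT_68958 (0.65) and PAXINDRAFT_94322 (1.02). It was negative for PAXINDRAFT_100832 (-0.58), PAXINDRAFT_13013 (-0.29), PAXINDRAFT_162475 (-0.45), PAXINDRAFT_165289 (-0.44), PAXINDRAFT_168342 (-0.52), PAXINDRAFT_172428 (-0.58), PAXINDRAFT_21058 (-0.78), PAXINDRAFT_64507 (-0.49), PAXINDRAFT_76742 (-0.77), PAXINDRAFT_93209 (-0.66) and PAXINDRAFT_99821 (-0.83). The log2 difference of muscovite over K-vermiculite was positive for PAXINDRAFT_100832 (1.21), PAXINDRAFT_102380 (0.69), PAXINDRAFT_102637 (1.33), PAXINDRAFT_103014 (1.20), PAXINDRAFT_15291 (0.95), PAXINDRAFT_165289 (0.96), PAXINDRAFT_167814 (0.72), PAXINDRAFT_172428 (1.05), PAXINDRAFT_18660 (1.00), PAXINDRAFT_20619 (1.36), PAXINDRAFT_21058 (1.78), PAXINDRAFT_81425 (1.63), PAXINDRAFT_94322 (1.08), PAXINDRAFT_9448 (1.01) and PAXINDRAFT_99821 (1.12). It was negative for PAXINDRAFT_100273 (-0.70), PAXINDRAFT_103212 (-0.67), PAXINDRAFT_158434 (-0.68), PAXINDRAFT_162475 (-0.99), PAXINDRAFT_162512 (-0.64), PAXINDRAFT_170907 (-0.43), PAXINDRAFT_76742 (-2.11), PAXINDRAFT_79732 (-0.86), PAXINDRAFT_91826 (-0.84) and PAXINDRAFT_93209 (-0.76).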

How the results depend on the processing

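The count of 428 called genes was 644 with DESeq2, 193 when the 2 groups were fitted alone and 224 to 526 when 1 culture was left out. Genes called higher numbered 292 with DESeq2 and 108 in the fit of 2 groups, and 107 to 242 without 1 culture, in place of 191. Genes called lower numbered 85 in the fit of 2 groups and 115 to 284 without 1 culture, in place of 237. The 23 genes called at least 2-fold were 12 with a filter at a mean of 5 CPM, which removes genes from the test, and 18 to 30 without 1 culture. Muscovite against phlogopite gave 529 calls, 805 with DESeq2, 214 in the fit of 2 groups and 212 to 755 without 1 culture, and against K-vermiculite 4984 calls and 4403 to 4761. Except where its construction shows it, the cause was not tested. Scaled by library totals alone, 33.3% of calls against K-depleted medium were higher in place of 44.6%, and 41.5% in place of 51.6% against K-vermiculite. No direction of a named gene reversed. Of 611 values of named genes under the alternatives, 64 lost their call, 11 of them in the fit of 2 groups alone.

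Replicate numbers were not taken to pair the cultures: deviations from the group means of cultures with the same number correlated by 0.11, 0.11, -0.05, 0.15 and -0.01, above 0.1 for 3 of 5 numbers, and 2 of 5 muscovite and 0 of 5 K-depleted cultures correlated best with their own number. A replicate block gave 466 calls, 215 higher and 251 lower, 23 of them at least 2-fold, and, of 66 called genes of the rule, at least 2-fold or in the stretch of neighbours, lost PAXINDRAFT_96982 (edgeR adjusted p 0.107) and PAXINDRAFT_78289 (0.0518). The planned counts in lists of protein features were not run, because no such features were at hand. Below 1 CPM, 4 of 757 genes were called, with a median absolute log2 fold change of 1.34, so smaller changes were rarely called at that depth.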

Other observations

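pks3 had a pattern over the cultures that did not follow the groups. It was low in muscovite 4 (12.5 CPM), phlogopite 4 (14.8 CPM), complete-medium cultures 1, 2 and 5 (20.2, 17.9 and 13.3 CPM) and K-depleted 4 (15.1 CPM), and 28.1 to 76.1 CPM in the other cultures. Muscovite 4, phlogopite 4 and K-depleted 4 share a replicate number, but K-vermiculite 4 (45.9 CPM) and complete-medium 4 (55.6 CPM) were not low. A link of pks3 to that number was not tested. Over all 25 libraries, 21 genes had a Pearson correlation of log2 CPM with pks3 of at least 0.9. They were chosen by that value, so it is a description. The closest was PAXINDRAFT_103161, at 47.3 CPM in muscovite 4 against 96.0 to 129 in the other muscovite cultures, and at 53.7 CPM in K-depleted 4 against 69.4 to 130.3 in the other K-depleted cultures. All 21 genes were below the median of the other 4 cultures of the group in each of the 6 low cultures, by median log2 differences of -2.53 in muscovite 4, -1.97 in phlogopite 4 and -1.42 in K-depleted 4. None of the 21 was called between muscovite and K-depleted cultures by edgeR, DESeq2 or limma-voom, and 0 had an unadjusted p below 0.05.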
